A study of Homo sapiens with 2 samples.

Results

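The mERG peaks described here lie on the long arm of chromosome 11 between 60 and 80 Mb (GRCh37/hg19), a segment that takes in 11q13 and the bands beside it. Members were chosen by position, as every peak of the deposited list on chromosome 11 with a start from 60000000 to 80000000. The segment itself was selected on peak positions and widths that were already known, so the number, width and score of its peaks are given as a description and without a test. The rule took 390 of the 986 peaks on chromosome 11 and of the 18070 in the list (2.16%). The ChIP-seq asked where ERG that carries a methyl group on lysine K362 (mERG) sits on DNA. The cells were VCaP, an established prostate cancer line with the TMPRSS2-ERG fusion, and the precipitation used a rabbit polyclonal antibody raised against an ERG peptide mono-methylated at K362. Chromatin was cross-linked with formaldehyde, treated with micrococcal nuclease and sonicated. The other library was a control from the same line, called INPUT in its title and anti-IgG in its antibody label, so that its kind was not settled. The data were 1 ChIP library and 1 control library, so no value has a replicate, and the read depth is unknown from the list.

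ERG is a transcription factor of the ETS family, whose members recognize DNA around the core GGAA. The TMPRSS2-ERG fusion places ERG under an androgen-responsive promoter in prostate cells, and EZH2 is the histone H3K27 methyltransferase of Polycomb repressive complex 2 that the study examined as the enzyme modifying ERG. Band 11q13 is gene-rich and is known for the amplification of CCND1, the cyclin D1 gene, and its neighbors in several carcinomas.

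To show what DNA lies under these peaks, the bases 100 bp on each side of the centre (201 bp) are given for the highest-scoring peak of 3 genes, RTN3 and ATL3 from between 63 and 68 Mb and PPP6R3, the gene with the most peaks, from 68 to 80 Mb. Capitals mark GGAA or its reverse complement TTCC, and the + strand of GRCh37 is shown. All 3 windows lie in introns by the location class of the list. The RTN3 window is chr11:63457980-63458180, the ATL3 window chr11:63428753-63428953 and the PPP6R3 window chr11:68268476-68268676.
RTN3: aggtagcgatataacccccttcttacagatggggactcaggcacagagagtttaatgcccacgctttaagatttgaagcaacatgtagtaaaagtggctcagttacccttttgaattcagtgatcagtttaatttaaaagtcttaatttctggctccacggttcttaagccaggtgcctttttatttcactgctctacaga
ATL3: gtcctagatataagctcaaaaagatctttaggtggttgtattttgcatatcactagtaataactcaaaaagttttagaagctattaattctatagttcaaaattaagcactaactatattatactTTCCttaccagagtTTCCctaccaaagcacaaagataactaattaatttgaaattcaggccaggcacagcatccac
PPP6R3: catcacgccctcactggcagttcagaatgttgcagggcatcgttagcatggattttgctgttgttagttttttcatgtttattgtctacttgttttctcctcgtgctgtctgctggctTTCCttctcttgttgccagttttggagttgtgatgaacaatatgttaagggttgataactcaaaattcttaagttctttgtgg
The core was present in the ATL3 and PPP6R3 windows. The window at RTN3, under the highest score of the segment, held 0 copies, which says only that these letters are not within 100 bp of that centre.

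The segment held 39.6% of the mERG peaks of chromosome 11 (Wilson 95% interval 36.5 to 42.6%) on 14.8% of its length. Intervals here and below cover counting error only, and neighboring peaks of 1 library are not independent. Peak density was 19.5 per Mb against 5.18 per Mb in the rest of the chromosome, a ratio of 3.76. Protein-coding gene bodies made up 63.4% of the segment and 45.9% of the rest, and per Mb of gene body the ratio was 2.72. The difference was larger in covered bases than in peak number. Peaks covered 481 kb of the segment (24.1 kb per Mb) and 236 kb of the rest (2.05 kb per Mb), so that 67.1% of all peak bases of chromosome 11 lay in the segment. The rest was not uniform, with 2.65 peaks per Mb before the segment and 7.94 per Mb after it.

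Peaks were unevenly spread over the 20 steps of 1 Mb. Of these steps, 5 had no peak, the median was 16 and the highest count was 57, compared with a median of 2 and a highest count of 39 over the 116 steps in the rest of the chromosome. The first 3 Mb of the segment, from 60 to 63 Mb, were empty. Peaks began in the step at 63 Mb (18 peaks), fell to 3 in the step at 64 Mb and reached 27, 49 and 35 in the steps at 65, 66 and 67 Mb. The step at 68 Mb held 48 peaks and that at 69 Mb none. Further along, the steps at 73 Mb (57 peaks) and 77 Mb (53 peaks) were the most crowded. From 65 to 68 Mb, covered bases rose with the number of peaks, and later steps held fewer covered bases for a like number. The step at 66 Mb held 121 kb of peak and that at 63 Mb 119 kb from only 18 peaks, whereas the 57 peaks at 73 Mb covered 25.2 kb. Among the 1769 steps of the genome with a peak, the step at 66 Mb ranked 1 and that at 63 Mb ranked 4 by covered bases, while by number they ranked 53 and 285. GC content had a median of 46.7% over the steps of the segment and 40.02% over those of the rest, and its part in the density was not tested.

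On chromosome 11, nearly all wide peaks lay in a stretch between 63 and 68 Mb. It held 132 peaks, 33.8% of the members, and 76.0% of the covered bases. Its bounds were set with the peak widths known, so the values on width describe it and test nothing. Width there had a median of 1929.5 bp (95% interval of the median 1611 to 2104 bp) and ranged from 574 to 13207 bp. From 68 to 80 Mb, the 258 peaks had a median of 424.5 bp (407 to 442) and a maximum of 1312 bp, against 367 bp (356 to 380) and 1173 bp in the rest of chromosome 11. Peaks of 1 kb or more numbered 114 of 132 (86.4%, interval 79.5 to 91.2%) in the first stretch and 3 of 258 (1.16%) in the second. In the rest of the chromosome they numbered 7 of 596 (1.17%). In the whole list 1043 peaks (5.77%) were as wide. Peaks over 5 kb numbered 19 of the 46 in the list, all 19 of them between 63 and 68 Mb, and 0 of 596 in the rest of chromosome 11, a count that allows a share of up to 0.503% by 3 counts of the total (Wilson upper limit 0.640%). The narrowest peak of the first stretch was 574 bp, a width that 39 of the 258 later peaks and 60 of the 596 elsewhere on the chromosome reached.

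The change of width fell between neighboring peaks. The last peak before 68 Mb lay in KMT5B (chr11:67952779-67958153, 5375 bp, score 343.3). The next lay 129 kb further on, in LRP5 (chr11:68087354-68087838), and was 485 bp wide with a score of 35.3. Median width per step was 6532.5 bp at 63 Mb, 1664 bp at 65 Mb, 1646 bp at 66 Mb and 1875 bp at 67 Mb, then 461 bp at 68 Mb. No step in the rest of the chromosome had a median above 519 bp. Thus the mean density from 68 to 80 Mb (21.5 peaks per Mb, against 26.4 between 63 and 68 Mb) stayed above the 5.18 of the rest, while width fell. These later peaks were unevenly spread. The steps at 68, 73 and 77 Mb held 48, 57 and 53 of the 258, and that at 69 Mb held none.

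**Figure D1:**
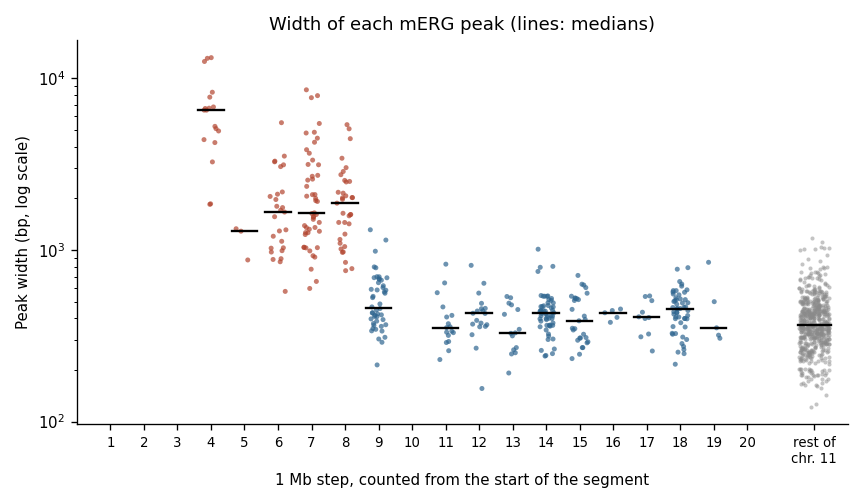
Width of each mERG peak in bp on a log axis, by 1 Mb step of the segment and for the rest of chromosome 11; each point is a peak and black lines are medians. The medians of steps 4 to 8 lie above 1 kb, and those of the later steps lie near the 367 bp of the rest of the chromosome.

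The score is the authors' value from MACS, read here as −10 times the log10 of the p-value. Its median was 45.8 (43.2 to 48.6) in the segment and 40.3 (39.5 to 41.5) in the rest of chromosome 11. Between 63 and 68 Mb the median was 65.0 and the maximum 585.7. From 68 to 80 Mb the corresponding values were 41.9 and 109.1. Scores of 100 or more were reached by 42 of the 48 such peaks of the chromosome, 40 of them between 63 and 68 Mb. Width and score rose together within each group of peaks (Spearman rho 0.72 for the 132 early peaks, 0.59 for the 258 later ones and 0.61 for the 596 elsewhere), and both come from the same call on the same library. At a like score the early peaks were also the wider ones, though their stretch was set apart with the widths known. The part of the score in the width was not tested. For scores from 40 to 50, the median width was 1263 bp over 27 peaks between 63 and 68 Mb, 413.5 bp over 66 later peaks and 407.5 bp over 192 peaks in the rest of the chromosome. For scores from 33 to 40 the medians were 1220.5 bp (22 peaks), 364 bp (112 peaks) and 320.0 bp (289 peaks), in the same order.

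Peaks abutted more often in the stretch with wide ones, whose bounds were set with the widths known. Peaks covered 7.31% of that stretch, 0.964% of the part from 68 to 80 Mb and 0.205% of the rest of the chromosome. The part of this coverage in the short gaps was not tested. Between 63 and 68 Mb, 27 of 132 peaks (20.5%, interval 14.5 to 28.1%) began within 100 bp of the peak before, against 11 of 258 (4.26%) from 68 to 80 Mb and 9 of 596 (1.51%) in the rest of the chromosome. When peaks at most 100 bp apart were joined, the segment had 352 runs, of which 28 held 2 or more peaks and 66 peaks in all. These counts are for the whole segment. The longest run in the rest of the chromosome was 1223 bp. RTN3 carried the longest run of the segment, 4 peaks over 40323 bp (chr11:63451806-63492128) with gaps of 19, 64 and 3 bp, so that 99.8% of it was peak. A run of 6 peaks over 29612 bp lay in ATL3 (chr11:63406849-63436460), with gaps from 2 to 78 bp. At MARK2, the wider of its 2 peaks was a run by itself, of 13089 bp (chr11:63617794-63630882). In the runs at RTN3 and ATL3 the list therefore counts as several peaks what covers 1 almost unbroken block.

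The genes under the wide peaks serve different functions in the cell. RTN3 is a reticulon that shapes tubules of the endoplasmic reticulum (ER). It had the highest score of the segment (585.7, chr11:63451806-63464354, a peak in its first intron), and its 7 peaks covered 52.6 of 78.4 kb of gene body (67.0%). ATL3 encodes atlastin 3, a GTPase that fuses ER tubules, and lies next to RTN3 in the opposite orientation. Its 6 peaks, with a top score of 484.7 (chr11:63425515-63432191), covered 61.6% of its 47.8 kb. The adjoining PLAAT3, a phospholipase A and acyltransferase gene listed also as PLA2G16, held 3 peaks with scores up to 259.8 that covered 36.7% of it. MARK2, a kinase that phosphorylates microtubule-associated proteins, had 2 peaks covering 27.6%. All 18 peaks of the step at 63 Mb were at least 1 kb wide, and 12 were over 5 kb.

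KDM2A and KMT5B, both histone-modifying enzymes, also lay under wide peaks. KDM2A, an H3K36 demethylase that binds unmethylated CpG DNA, had 22 peaks, 21 of them of 1 kb or more and 4 over 5 kb. They covered 71.6 of 138.8 kb of the gene (51.6%), and the highest scored 464.8 (chr11:66928085-66935803). KMT5B, which methylates H4K20, had 9 peaks covering 41.7% of 59.0 kb, with a top score of 343.3. They were the 2 of 10 genes with a peak centre in a list of mostly chromatin regulators, while 57 of all 385 protein-coding genes of the segment (14.8%) had one. MEN1, MTA2, BRMS1, INCENP, BANF1, RELA, the splicing factor SF1 and SIPA1, a GTPase-activating protein for Rap, had none. These 8 genes are short, from 1.92 to 29.2 kb, against 138.8 kb for KDM2A. The list is not complete, as it leaves out RSF1, a chromatin remodeling gene with peaks, and KAT5, RCOR2 and DPF2, which had no peak centre.

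Other genes with many covered bases between 65 and 68 Mb were CHKA, PACS1, C11orf80 and PC. CHKA, choline kinase alpha, the first enzyme of phosphatidylcholine synthesis from choline, held 16 peaks over 49.4% of its body, with scores up to 234.5. PACS1, an adaptor in protein sorting at the trans-Golgi network, held all 27 peaks of the step at 65 Mb, which covered 29.1% of 174 kb and scored up to 199.3. C11orf80 had 12 peaks covering 30.3%. Coverage was lower at PC, which encodes the mitochondrial pyruvate carboxylase, where 10 peaks of at most 1611 bp covered 11.7%.

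**Figure D2:**
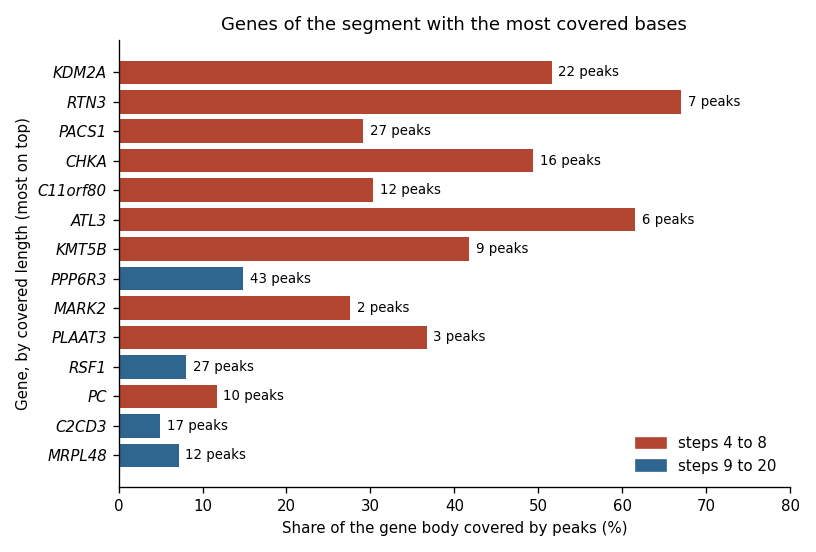
Share of the gene body covered by mERG peaks, in percent, for the 14 protein-coding genes of the segment with the most covered bases; labels give the number of peak centres in the gene, and colors the place of the gene start. RTN3, ATL3 and KDM2A are covered by more than 50%, while PPP6R3, with the most peaks (43), is covered by 14.8%.

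Beyond 68 Mb, genes had many peaks of ordinary width. PPP6R3, a regulatory subunit of protein phosphatase 6, contained 43 peak centres, the most of any gene in the segment, yet they covered 14.8% of its 155 kb. Its peaks had a top score of 109.1 (chr11:68268183-68268970) and a largest width of 1312 bp. RSF1, a subunit of an ISWI chromatin remodeling complex, contained 27 centres covering 8.05% of 161 kb, the widest being 789 bp. C2CD3, needed for centriole elongation, contained 17 covering 4.99%. The list also named RNF169, a ubiquitin-binding protein of the DNA damage response, at 11 peaks with scores from 33.1 to 55.2. INTS4 of the Integrator complex and RAB6A, a Golgi GTPase, were named at 9 each. Per length, PPP6R3 (27.8 peaks per 100 kb) thus had more peaks than CHKA (23.3) or KDM2A (15.8), which were covered more.

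In the most covered genes, peaks lay more towards the start of the gene. Of the 14 genes with at least 10% of the body covered, 13 of them between 63 and 68 Mb, 11 were covered more before the midpoint than after it. RTN3 was covered by 92.4% before and 41.6% after the midpoint, and KDM2A by 63.9% and 39.3%. KMT5B went the other way, with 18.2% before and 65.3% after. Over all 57 genes with a peak centre the difference was smaller, with 228 centres before and 166 after the midpoint (57.9% before), and 29 genes had more centres before and 20 more after it. ALDH3B2 was the only 1 of the 57 genes with a peak centre whose annotated start lay inside a peak. The median distance to the nearest peak was 8.52 kb from the start and 13.96 kb from the end of these genes, and the end was the farther of both in 30 of 57. At ATL3 a peak lay 2.93 kb from the start and 15.3 kb from the end, and at KDM2A the distances were 11.5 and 14.2 kb. The start was the farther in the other 27 genes, among them RTN3 (2.89 and 0 kb) and KMT5B (23.2 and 0.55 kb).

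Most genes of the segment had no peak. Of the 385 protein-coding genes, 57 (14.8%, interval 11.6 to 18.7%) contained a peak centre, and 168 of 930 (18.1%) did in the rest of chromosome 11. The high peak number of the segment therefore came with no higher share of genes. Between 60 and 63 Mb 0 of 90 genes had one, between 63 and 68 Mb 20 of 175 (11.4%), and between 68 and 80 Mb 37 of 119 (31.1%). A further gene, without a peak centre, lies across the boundary at 63 Mb. The share moved with gene length. It was 0 of 142 below 10 kb, 10 of 137 from 10 to 30 kb, 27 of 75 from 30 to 100 kb and 20 of 31 above 100 kb. Genes with a peak had a median length of 77.3 kb and those without one 12.98 kb, and the part of length in the differences between steps was not tested.

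The peak list named 77 genes, 66 of them protein-coding, at the segment's peaks. The 10 genes named most often took 164 peaks (42.1%), led by PPP6R3 (39), KDM2A (22), RSF1 (19), PACS1 (17) and CHKA (15), and 20 genes were named once. A name follows the nearest transcription start site (TSS) and not the gene that contains the peak. The centres of 100 peaks (25.6%) lay in a protein-coding gene other than the one named, compared with 126 of 596 (21.1%) in the rest of the chromosome. All 10 peaks named for KLC2, a kinesin light chain, lay in PACS1. All 4 named for RCE1 lay in C11orf80, and all 3 named for C11orf95 lay in RTN3. Of the 9 peaks named for CLNS1A, 8 lay in RSF1, and 4 of 15 named for CHKA lay in KMT5B. Both peaks named for HRASLS2, which include the first of the segment, lay in PLAAT3.

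Location classes of the list placed 366 of 390 peaks in introns (93.8%, interval 91.0 to 95.8%), against 511 of 596 (85.7%, 82.7 to 88.3%) in the rest of chromosome 11 and 87.6% in the whole list. Intergenic peaks numbered 11 (2.82%) and 54 (9.06%). Promoter-TSS regions held 0 of the 390 peaks, a count that allows a share of up to 0.769% by 3 counts of the total (Wilson upper limit 0.975%). Such regions were also rare elsewhere, with 1 of 596 peaks (0.168%) in the rest of the chromosome and 0.277% in the whole list. No centre lay within 1 kb of a TSS, against 3 of 596 (0.503%) in the rest and 0.481% in the list. Within 10 kb lay 65 (16.7%), against 144 of 596 (24.2%) in the rest and 20.1% in the list. Peaks of the segment were thus mostly intronic and distant from start sites, as were those of the list as a whole.

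Among repeat classes, the share of SINEs differed most between the segment and the rest of the chromosome. The centre lay in a SINE, the class that holds Alu elements, for 92 peaks (23.6%, interval 19.6 to 28.0%), against 62 (10.4%, 8.20 to 13.1%) in the rest of the chromosome and 14.2% in the list. For LINEs the shares were 22.1% and 17.6%, for LTR elements 3.85% and 5.03%, and for DNA repeats 4.10% and 5.87%, with intervals that overlapped. Within the segment the SINE share was 43 of 132 (32.6%) between 63 and 68 Mb and 49 of 258 (19.0%) after it. How many bases of each region are SINE was not analysed here. The centre of the first peak of the segment, in PLAAT3, lay in an AluSz element.

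The core GGAA, sought as these letters on either strand within 100 bp of the centre, was found at 313 of 390 peaks (80.3%, interval 76.0 to 83.9%). Windows 2000 bp away held it in 78.8% of cases, though 201 of these 780 windows touched a peak, and 80.6% of all 201-bp windows of the segment held it. In the rest of chromosome 11 the shares were 85.6% at the peaks and 82.8% in windows away. By part, the core was found at 96 of 132 peaks (72.7%, interval 64.6 to 79.6%) between 63 and 68 Mb and 217 of 258 (84.1%, 79.2 to 88.1%) from 68 to 80 Mb, where 77.8% and 81.7% of all windows of the same part held it. Both of these shares of windows lay within the interval of the peaks. The longer ETS motif CCGGAAGT, which contains GGAA, was found on either strand at 0 of 390 peaks (up to 0.769% by 3 counts) and in 0.151% of all windows of the segment. A search over whole peaks, added after seeing the data, found it 1 time in 481 kb (0.208 per 100 kb), against 0.824 per 100 kb of the segment. The rate in peaks rests on that 1 match and has no interval. The rate of the segment covers all its bases and is not matched to the mostly intronic peaks. GGAA occurred 8.42 times per kb of peak (8.17 between 63 and 68 Mb) and 9.91 times per kb of the segment. The rate over all bases between 63 and 68 Mb, which held 76.0% of the segment's peak bases, was not computed. Of all windows of that part 77.8% held GGAA, against 80.6% in the segment, so these rates are not matched by place. In the rest of chromosome 11 GGAA occurred 10.15 times per kb of peak, against 10.24 per kb of the whole chromosome. Peaks of the rest held the longer motif 0 times in 236 kb. A missing match says only that these letters are not in the sequence searched.

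The amplified blocks known from other carcinomas held peaks in part, and their counts are to be read beside the 14.8% of all protein-coding genes of the segment with a peak centre and the 31.1% of those from 68 to 80 Mb. Of 12 genes of the 11q13.3 block, 3 had a peak centre in the body, namely PPFIA1 (7 peaks), CTTN (1) and SHANK2 (9). CCND1, MYEOV, LTO1, FGF19, FGF4, FGF3, ANO1, FADD and TPCN2 had none. All 9 lay in the largest gap between peaks of the segment, 1609 kb from TESMIN to PPFIA1 (chr11:68512333-70121069), and the nearest peak to CCND1 was 652 kb away. Of 13 genes of the 11q13.5-q14 block, 6 had a peak centre. RSF1 had 27, PAK1, a kinase downstream of RAC and CDC42, had 7, EMSY had 6, UVRAG 5, NDUFC2 2 and CLNS1A 1. GAB2, ALG8, AQP11, WNT11, CAPN5, MYO7A and TENM4 had none, although TENM4 spans 788 kb. Peaks at these genes were at most 827 bp wide. The long non-coding RNA locus with MALAT1 and NEAT1 was free of peaks, as were LTBP3, FRMD8 and SLC25A45 around it (0 of 5 genes listed), and the nearest peak to MALAT1 lay 299.6 kb away. This locus fell in a gap of 877 kb between CAPN1 and PACS1.

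The study's own list of ERG/EZH2 targets deregulated in castration-resistant tumors had 13 genes in the segment. It rests on ERG and EZH2 binding in the same cell line and is not independent evidence. Of these, 7 contained peak centres (PPP6R3 43, PACS1 27, C2CD3 17, RNF121 11, SHANK2 9, FCHSD2 8 and NARS2 4). CCND1, KLHL35, MAP6, RELA, SLC29A2 and TSKU contained none. The 7 had a median length of 158 kb and the other 6 of 12.1 kb. Over all genes of the segment the share with a peak centre was 14.8%, and over those above 100 kb it was 64.5%, so the list count was not set apart from gene length.

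At its edges the segment met stretches without peaks. The last peak before 60 Mb lay in STX3 (chr11:59549488-59549892, 405 bp, score 54.0), and the first inside was the one named for HRASLS2 at chr11:63341696-63346092 (4397 bp, score 259.8). The last inside lay in NARS2 (chr11:78283876-78284375, 500 bp, score 61.7). The first after 80 Mb, named for the non-coding LOC101928944, was at chr11:80861406-80861627 (222 bp, score 34.8). Both edges thus fell in gaps, of which the one before 63 Mb ended directly in wide peaks.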

How the data were processed

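The authors deposited 1 peak list. Per the file header, its peaks came from MACS on hg19 and were annotated with HOMER. Bowtie2, Picard and HOMER are named in the submitters' processing notes. Their roles, the MACS version and its threshold are not given in the sources used here. The score is the deposited value of each peak, read here as −10 log10 of the p-value from MACS, since the lowest score of the list then equals a p of 5.00e-04. No fold enrichment, summit or depth is given.

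From the list, width (end minus start, both included), centre, 1 Mb steps and runs were computed. Sequence and gene bodies came from GRCh37 and GENCODE release 44 lifted to it, whose gene starts can lie upstream of the TSS used by the list. The segment's peak numbers run from 1771 to 2160 with 0 missing, while 13 are missing on chromosome 11, in the part used for comparison, and 206 in the whole list. Shares have Wilson 95% intervals, medians binomial ones, and counts of 0 a limit of 3 counts. No test was run. Helper functions were checked on simulated data. Software was Matplotlib 3.10.9, pandas 2.3.3, NumPy 2.4.6 and SciPy 1.17.1 under Python 3.11.15.

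Members and lists were chosen with earlier results of these data known. Named were genes with a peak over 5 kb, the 10 with most peaks, the 5 with the highest scores, those at the edges and 4 lists (2 amplified blocks, mostly chromatin regulators, and a non-coding RNA locus). A few items under these rules are not reported here. Other genes, the study's target list, widths at a like score and positions about the midpoint were chosen after their values were seen. Alternatives were score, width and distance limits, joined peaks and the segment without 63 to 68 Mb.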

Additional observations from a re-analysis of the deposited data

How the results depend on the processing

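The larger density in the segment was kept under every alternative run (ratio from 2.63 with peaks within 5 kb joined to 8.15 at a minimum score of 50). The segment was selected on the positions of these same peaks, so this describes the choice and does not test it. The share of chromosome 11 peaks was 46.1% for the stronger 50% of peaks, 58.6% at a minimum score of 50 and 31.3% with peaks joined. Without 63 to 68 Mb, the share of peaks of 1 kb or more was 1.16%, the median width 424.5 bp, the median score 41.85 and the GGAA share 84.1%. For the stronger 50% of peaks, the share of 1 kb or more was 39.8% and the median width 689.5 bp. At limits of 2 and 5 kb the wide share was 15.9% and 4.87%. GGAA within 50 bp was found at 59.2% of peaks, and 41 genes were named by peaks within 10 kb of a TSS. In alternatives added after seeing the data, the segment without 63 to 68 Mb held 30.2% of the chromosome's peaks and 32.9% of its peak bases, against 58.8% without peaks over 5 kb. The intron share stayed within its interval under its 4 alternatives. Why values moved was not tested beyond what each alternative leaves out. No paired analysis was possible because each group has 1 library. Signal in the control library was not analysed here.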
